A study of Homo sapiens with 6 samples.

Results

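MYC, a transcription factor of cell growth, and 51 genes whose products make ribosomes in the nucleolus were compared between spheroids and monolayers of the mesothelioma cell line NCI-H226. The 52 genes were listed by name and by the step they serve. They comprise MYC, 5 genes of RNA polymerase I, 7 of the small nucleolar ribonucleoproteins (snoRNPs), 16 of small subunit processing, 17 of large subunit processing and 6 nucleolar proteins that act at several steps. A probe set that the annotation assigns to 1 gene symbol was present for 45 of the 52, out of 19775 genes measured in that way on the array. NOP56, DKC1, BOP1 and PPAN were read only by probe sets that the annotation also assigns to other symbols. For GNL3, DDX18 and EBNA1BP2 the annotation used here names no probe set, and they were not analysed here.

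A ribosome is assembled in the nucleolus around RNA that RNA polymerase I copies from the ribosomal DNA as 1 long precursor. The U3 snoRNP and the small subunit processome fold and cut the precursor on the side of the small subunit, other snoRNPs guide its methylation and pseudouridylation, and a separate set of factors matures the large subunit before both are exported. MYC binds DNA with its partner MAX at short E-box motifs, and genes of ribosome synthesis are among the targets for which it is best known.

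NCI-H226 is an established line of human mesothelioma cells, and the labels name no drug and no engineered allele for either group. Monolayers were adherent cultures. Spheroids were formed from 10000 cells each in wells coated with poly-HEMA, a polymer that prevents attachment, without an added matrix, and were kept for 24 hours. Each group had 3 biological replicates with 1 Affymetrix U133 Plus 2.0 array each, so all values describe 1 cell line. RNA came from whole cultures, so fewer cells that express a gene and less RNA per cell cannot be told apart.

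The deposited values are MAS5 signal intensities on a linear scale, with a trimmed mean of 150.0 on every array. The median signal was 14.6 to 14.7 in the monolayers and 15.2 to 18.05 in the spheroids, so signals were transformed to log2 and centred on the median of each array before testing. A gene was called lower or higher in spheroids where its Benjamini-Hochberg adjusted p by limma was under 0.05, adjusted over all 54613 probe sets tested, and log2 differences are spheroids minus monolayers on the centred scale. RNA integrity was read from ACTB, whose 3' probe set exceeded its 5' probe set 1.09- to 1.11-fold in monolayers and 1.11- to 1.23-fold in spheroids. Of the 10 mesothelial markers, 1 was called higher in spheroids (PDPN, log2 difference 1.10, standard error 0.28, adjusted p = 0.0396 by limma, a call lost when any 1 of 5 arrays was left out) and 0 lower. Without monolayer 1, 5 were called higher, with CALB2, MSLN, UPK3B and KRT5 at log2 differences of 3.75, 0.71, 1.46 and 1.88 beside PDPN. CALB2, the mesothelial marker calretinin, separated monolayer 1 from the other monolayers, with signals of 1582, 163 and 83.6 in monolayers and 2238, 1317 and 1765 in spheroids. KRT5, a keratin, gave 1845, 129.9 and 79.3 in monolayers and 910.5, 267 and 290.4 in spheroids, with replicate 1 the highest of each group. THBD, a mesothelial marker, went the other way, at a log2 difference of -1.245 without a call. It gave 348.7, 99.9 and 127.5 in monolayers and 96.1, 86.5 and 54.3 in spheroids. With the replicate number as a block, THBD was called lower (adjusted p = 0.0109 by limma) and CALB2 higher (adjusted p = 0.016 by limma). Leukocyte, endothelial and fibroblast markers, 8 measured of each, gave 0 calls apart from PDGFRA (log2 difference 3.67, signals of 2.13 to 7.30 in monolayers and 40.5 to 107 in spheroids). Of the leukocyte markers, PTPRC did not exceed 13.9, CD14 reached 50.7 and ITGAM gave 61.5 to 108.5 over the 6 arrays. On the centred scale every spheroid lay above every monolayer for PTPRC, CD14 and CD3E, and below for CD247. Of all 19775 genes, 2315 were separated upward in this way and 4064 downward. Without monolayer 1, PTPRC and PDGFRB were also called higher and THY1 lower, and VWF was called higher without spheroid 2. The summed signals per array were 156 to 181 in monolayers and 192 to 244 in spheroids for the leukocyte list, 245 to 487 and 181 to 237 for the endothelial list, 1828 to 2388 and 1982 to 2259 for the fibroblast list, and 16839 to 24718 and 23216 to 26461 for the mesothelial list.

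Promoter sequences from RefSeq (GRCh38.p14), from 250 bases before to 50 bases after the start, were matched by symbol for 42 of the 52 genes and searched for CACGTG, the canonical E-box, which reads the same on both strands. The motif was present for 20 of these 42 genes (47.6%), against 8.77% of all 27305 genes with such a sequence. It was present for 10.9% of the 15384 tested genes with a sequence and for 14.4% of the 1529 called lower in spheroids. Among ribosome biogenesis factors outside the 52 it was present for 25 of 105 (23.8%), and among ribosomal proteins for 4 of 63 (6.35%). Counted by promoter, 21 of the 51 promoters of the 42 genes held it (41.2%), against 7.26% of all 35116. It was found for 9 of 15 small subunit genes, 6 of 12 large subunit genes, 3 of 6 nucleolar proteins of several steps, 2 of 5 snoRNP genes and 0 of 4 RNA polymerase I genes. The windows below belong to the 6 genes with the largest decreases in spheroids among those with the motif, with the motif in capitals and each written 5' to 3' on the strand of the gene.
LYAR: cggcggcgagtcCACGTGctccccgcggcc
RRP9: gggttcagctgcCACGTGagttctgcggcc
IMP4: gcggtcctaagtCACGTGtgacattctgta
MRTO4: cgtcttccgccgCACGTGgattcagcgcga
BYSL: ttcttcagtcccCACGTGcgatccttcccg
NOP2: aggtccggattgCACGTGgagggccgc
They lie at chr4:4290068-4290097, minus strand, for LYAR, chr3:51941892-51941921, minus strand, for RRP9, chr2:130342682-130342711, plus strand, for IMP4, chr1:19251807-19251836, plus strand, for MRTO4, chr6:41921515-41921544, plus strand, for BYSL, and chr12:6568242-6568268, minus strand, for NOP2. The motif begins 64 bases before the start of LYAR and 203 bases before that of IMP4, spans the start of RRP9, and begins at transcript bases 15, 29 and 36 of MRTO4, BYSL and NOP2. IMP4 holds another copy that begins at base 16 of its transcript. Only genes with both a promoter sequence and a probe set with 1 symbol were compared by motif. MYC, POLR1E, NOP58, NOLC1, RRP12, RRS1, RRP1B and URB2 had no promoter sequence and were left out. All of them were called lower, at log2 differences from -1.80 for RRS1 to -0.90 for NOLC1. The 18 with the motif had a median log2 difference between spheroids and monolayers of -1.19, and all 18 were called lower. The 19 without it had a median of -0.74, with 14 called lower. NOP56, PPAN and DKC1, also without the motif, were read only by shared probe sets and are not among the 19. NOP56 (-1.08 and -1.15) and PPAN (-1.26) were called lower, and DKC1 was called at -0.94 but not at -0.58 and -0.51. A match describes these letters only, and whether MYC occupied any of these promoters was not measured.

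Ribosome biogenesis genes were called lower in spheroids at each of the 5 steps. Of the 45 measured genes, MYC included, 40 were downregulated in spheroids by limma and 0 were upregulated, where 9.22% of all 19775 genes were called lower and 3.88% higher. The calls among all genes were 886 to 2136 lower and 322 to 1107 higher when 1 array was left out, fewest lower without monolayer 2 and fewest higher without spheroid 3. None of the 45 was higher in spheroids at an unadjusted p under 0.05 or by the methods' t-test (the test that the study names, on the same log2 values), which called 20 of them lower after the same adjustment. Of all 19775 genes, limma gave 3548 lower and 1903 higher at an unadjusted p under 0.05. The t-test called 525 of these 19775 genes lower and 131 higher. The median log2 difference was -1.06 over the 45 genes and -0.062 over all genes, and 24 of the 45 were more than 2-fold lower. Among the 8608 genes whose probe sets were as bright as those of the 45, 18.7% were called lower, with a median of -0.16. In 42 of the 45 genes every spheroid lay below every monolayer, which held for 20.6% of all genes and for 3068 of those 8608 genes. Without the centring, the median over all genes moved from -0.062 to 0.083 and the calls among all genes from 1824 lower and 768 higher to 1498 and 1337, and 40 of the 45 genes were again called lower with a median of -0.91. Quantile normalization gave 1510 lower and 1306 higher among all genes, and 41 lower and 0 higher among the 45.

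**Figure D1:**
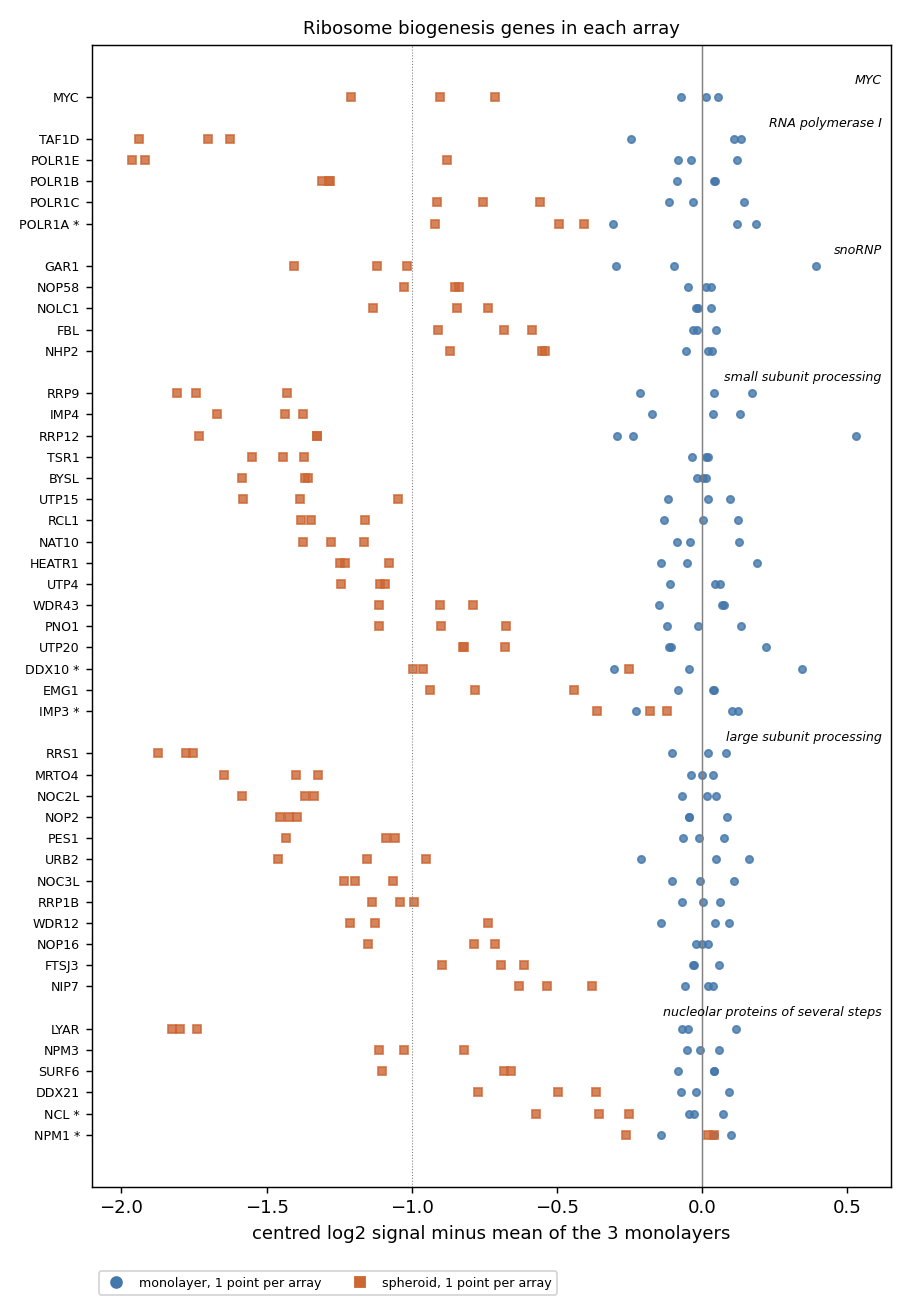
Centred log2 signal of each of the 45 genes in each of the 6 arrays, relative to the mean of the 3 monolayers, with genes grouped by step on the vertical axis, 1 point per array and an asterisk at the 5 genes that were not called. The spheroids (squares) lie below the monolayers (circles) for 42 of the 45 genes, and DDX10, IMP3 and NPM1 overlap.

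The decrease was present in each of the 3 spheroid arrays. Relative to the monolayer mean, the median gene stood at -1.04, -1.21 and -0.99 on the log2 scale in spheroids 1, 2 and 3, with 44, 45 and 44 of the 45 genes below it. The monolayer arrays had medians of 0.022, -0.021 and -0.00072, with 18, 25 and 23 of the 45 below their own mean.

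MYC itself was lower in spheroids. Its only probe set with 1 symbol gave signals of 1773, 1819 and 1677 in monolayers and 1138, 933 and 973 in spheroids. The 3 spheroids lay below the 3 monolayers, and the mean fell from 1756 ± 72.3 to 1015 ± 108 (SD over 3 arrays; log2 difference -0.94, standard error 0.15, adjusted p = 0.0056 by limma). The call was kept without each array in turn, with a log2 difference between -1.06 and -0.81, and was lost with the t-test and with limma without a mean-variance trend.

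RNA polymerase I genes had the lowest median of the steps, -1.29, with 4 of 5 called lower. POLR1B, the second-largest subunit of the enzyme, gave signals of 599, 548 and 603 in monolayers and 254, 289 and 248 in spheroids. It fell to 40.8% of the monolayer level on the centred scale (log2 difference -1.29, standard error 0.12, adjusted p = 0.000726 by limma), and all 4 of its probe sets were called lower. POLR1E, a subunit particular to polymerase I, gave 374, 429 and 388 in monolayers and 229, 125 and 109 in spheroids (log2 difference -1.59, standard error 0.27, adjusted p = 0.00732 by limma). Spheroid 1 stood apart from the other spheroids here, still below every monolayer. POLR1C, a subunit that polymerase I shares with polymerase III, gave 677, 565 and 602 in monolayers and 386, 401 and 431 in spheroids (log2 difference -0.74, standard error 0.14, adjusted p = 0.0126 by limma), a call lost without monolayer 3. POLR1A, the largest subunit, was not called at its brightest probe set, with 128, 134 and 95.7 in monolayers and 94.5, 76.6 and 86.9 in spheroids (log2 difference -0.61, standard error 0.21, adjusted p = 0.115 by limma). Its other probe sets were called lower, at log2 differences of -0.89 and -0.75. TAF1D, a component of the selectivity factor that brings polymerase I to the promoter, gave 149, 114 and 147 in monolayers and 44.2, 43.5 and 45.5 in spheroids (log2 difference -1.76, standard error 0.19, adjusted p = 0.00114 by limma). Another 2 probe sets are assigned by the annotation to TAF1D together with 7 small RNAs, including the snoRNAs hosted in its introns, and neither was called. The first gave 1673, 1848 and 1889.8 in monolayers and 1709.6, 1319 and 1511 in spheroids (log2 difference -0.40, adjusted p = 0.187 by limma). The other gave 1936, 2405 and 2330.1 in monolayers and 2318, 2209 and 2450.1 in spheroids (log2 difference -0.076, adjusted p = 0.834 by limma), with overlapping groups.

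The snoRNP genes were called lower in 5 of 5 cases, with a median of -0.90, and the count was 3 without monolayer 2 or without monolayer 3. Among proteins of the box C/D particles, which guide methylation, NOP58 is a scaffold and gave 1384, 1441 and 1470.1 in monolayers and 849.6, 865 and 822 in spheroids (log2 difference -0.91, standard error 0.12, adjusted p = 0.00248 by limma). FBL, the methyltransferase fibrillarin, gave 2523, 2493 and 2651 in monolayers and 1807, 1675 and 1651 in spheroids (log2 difference -0.73, standard error 0.13, adjusted p = 0.00988 by limma). In both genes the groups were separate. NOP56, the partner scaffold of NOP58, was read by 2 probe sets that the annotation also assigns to small RNAs within the gene, and these gave log2 differences of -1.08 and -1.15, both called lower. Among proteins of the box H/ACA particles, which guide pseudouridylation, GAR1 gave 1197, 742 and 857 in monolayers and 479, 424 and 435 in spheroids (log2 difference -1.18, standard error 0.19, adjusted p = 0.00617 by limma). Monolayer 1 was the highest value, and the other monolayers remained above all spheroids. NHP2, another core protein of these particles, gave 2988, 3008 and 2848 in monolayers and 2149.8, 1989 and 2083 in spheroids (log2 difference -0.65, standard error 0.14, adjusted p = 0.0182 by limma). DKC1, the pseudouridine synthase dyskerin, was read by 3 shared probe sets, of which 1 was called lower at -0.94 and the brighter ones were not, at -0.58 and -0.51 with adjusted p = 0.0507 and 0.0581 by limma. NOLC1, a nucleolar chaperone of snoRNPs, gave 2274, 2198 and 2200.4 in monolayers and 1418, 1249 and 1283 in spheroids (log2 difference -0.90, standard error 0.14, adjusted p = 0.00465 by limma), and its other probe sets were also called lower, at -1.46 and -0.74. The calls of FBL and NHP2 were those lost without monolayer 2 or 3.

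Small subunit processing had the most measured genes, and 14 of the 16 were called lower, with a median of -1.23. RRP9, a protein of the U3 snoRNP, had the largest decrease of the step, from 278 ± 37.6 to 97.4 ± 11.9 (SD over 3 arrays). Its signals were 238, 284 and 313 in monolayers and 83.9, 102 and 106 in spheroids (log2 difference -1.66, standard error 0.17, adjusted p = 0.000944 by limma). IMP4, which joins U3 to the precursor, gave 969, 1193 and 1127 in monolayers and 447, 422 and 418 in spheroids (log2 difference -1.49, standard error 0.14, adjusted p = 0.00077 by limma). Its partner IMP3 was not called, with 945, 1185 and 1211 in monolayers and 1039, 1061 and 1056 in spheroids (log2 difference -0.22, standard error 0.14, adjusted p = 0.431 by limma). The groups of IMP3 overlapped, and on the deposited scale all spheroids lay between monolayer 1 and the other monolayers. UTP4 and UTP15 belong to the complex that opens assembly of the processome. UTP4 gave 1700.0, 1911 and 1901 in monolayers and 902, 954 and 891 in spheroids (log2 difference -1.15, standard error 0.12). UTP15 gave 346, 401 and 383 in monolayers and 153, 155 and 188 in spheroids (log2 difference -1.34, standard error 0.17). HEATR1, of the same complex, gave 597, 505 and 477 in monolayers and 263, 275 and 229 in spheroids (log2 difference -1.19, standard error 0.14). WDR43, also of that complex, had a log2 difference of -0.93. For each of these 4 genes the spheroids lay below the monolayers, with adjusted p between 0.00105 and 0.00434 by limma.

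NAT10, which acetylates RNA of the small subunit, gave 736, 653 and 639 in monolayers and 319, 342 and 269 in spheroids (log2 difference -1.27, standard error 0.13). RCL1, a processome component linked to cleavage of the precursor, gave 276, 253 and 233 in monolayers and 103, 122 and 117 in spheroids (log2 difference -1.30, standard error 0.15). RRP12, a factor of late maturation and export, gave 454, 266 and 258 in monolayers and 133.3, 117 and 130.2 in spheroids (log2 difference -1.46, standard error 0.23). All 3 were called lower, with adjusted p between 0.000914 and 0.00591 by limma. Monolayer 1 was the highest value of RRP12, and the spheroids lay within a narrow range below all monolayers. BYSL, or bystin, which acts late on the small subunit, gave 444, 449.7 and 456 in monolayers and 159, 216 and 180.4 in spheroids (log2 difference -1.44, standard error 0.13, adjusted p = 0.000688 by limma). TSR1, which occupies the late small subunit precursor, gave 1458, 1403 and 1469 in monolayers and 592, 606 and 550.0 in spheroids (log2 difference -1.46, standard error 0.12, adjusted p = 0.000557 by limma), so its mean fell from 1444 ± 35.2 to 583 ± 29.1 (SD over 3 arrays). PNO1, a partner of the enzyme that makes the last cut, had a log2 difference of -0.89, UTP20 of -0.77 and EMG1, a methyltransferase of the small subunit RNA, of -0.72, and all 3 were called lower. The call of EMG1 was lost without monolayer 2, monolayer 3, spheroid 1 or spheroid 2. DDX10, an RNA helicase, was not called, with 996, 1189.6 and 1570.0 in monolayers and 655, 778 and 1071 in spheroids (log2 difference -0.74, standard error 0.23, adjusted p = 0.0879 by limma). Its groups overlapped through spheroid 3, and it was called lower without spheroid 3 (log2 difference -0.98) and without monolayer 1 (-0.89).

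**Figure D2:**
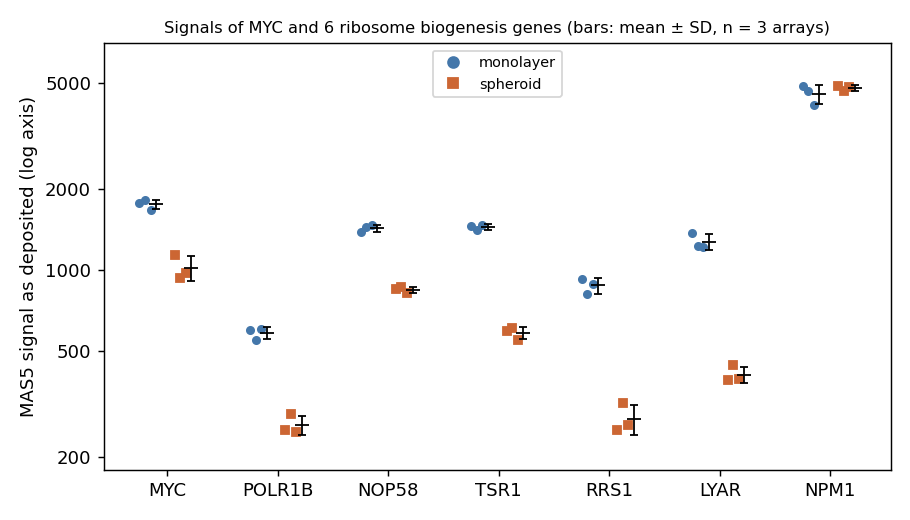
Deposited MAS5 signal (log axis) of MYC and of 6 ribosome biogenesis genes in each of the 3 monolayer and 3 spheroid arrays, with mean and SD. All spheroids lie below all monolayers for the first 6 genes, and NPM1 overlaps.

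Large subunit processing genes were called lower in 12 of 12 cases, with a median of -1.18. RRS1, which brings the 5S particle into the large subunit, had the largest decrease of all 45 genes, close to that of LYAR, from 875 ± 59.1 to 279 ± 35.3 (SD over 3 arrays). Its signals were 926, 810.2 and 889 in monolayers and 253, 319 and 264 in spheroids (log2 difference -1.80, standard error 0.12, adjusted p = 0.000309 by limma). MRTO4, which holds the place of a stalk protein on the immature subunit, gave 1006, 1057 and 1036 in monolayers and 438, 406 and 406 in spheroids (log2 difference -1.46, standard error 0.13, adjusted p = 0.000688 by limma). NOC2L and NOC3L, related factors of early and intermediate large subunit particles, were both called lower. NOC2L gave 374, 365 and 346 in monolayers and 152, 148 and 145 in spheroids (log2 difference -1.43, standard error 0.14, adjusted p = 0.000776 by limma). NOC3L gave 1455, 1359 and 1584 in monolayers and 677, 766 and 725 in spheroids (log2 difference -1.17, standard error 0.12, adjusted p = 0.00105 by limma). NOP2, a methyltransferase of the large subunit RNA, gave 651, 650.0 and 717 in monolayers and 271, 302 and 259.7 in spheroids (log2 difference -1.43, standard error 0.12, adjusted p = 0.000598 by limma). In each of these genes every spheroid lay below every monolayer. RRP1B, a nucleolar processing factor, gave 1353, 1282 and 1415 in monolayers and 695, 754 and 702 in spheroids (log2 difference -1.06, standard error 0.12, adjusted p = 0.00124 by limma).

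PES1, BOP1 and WDR12 form the PeBoW complex, which is needed to separate the RNAs of the large subunit. PES1 gave 360.1, 326 and 340.3 in monolayers and 174, 156 and 166 in spheroids (log2 difference -1.19, standard error 0.15, adjusted p = 0.00198 by limma). WDR12 gave 559, 634 and 661 in monolayers and 300.0, 328 and 383 in spheroids (log2 difference -1.03, standard error 0.16, adjusted p = 0.00479 by limma). BOP1 was read only by probe sets shared in the annotation with a microRNA gene, and the brighter of them gave 567, 614 and 614 in monolayers and 198, 166 and 141 in spheroids (log2 difference -1.99, adjusted p = 0.000557 by limma), with -0.94 at the dimmer. Thus all 3 components were called lower, BOP1 with the limit of its annotation. PPAN, which acts early on the large subunit, was read by 1 probe set shared with its read-through transcript, at -1.26 (adjusted p = 0.00294 by limma). URB2, an early factor of the large subunit, gave 124, 95.4 and 115 in monolayers and 52.8, 70.5 and 41.6 in spheroids (log2 difference -1.19, standard error 0.20, adjusted p = 0.00734 by limma). The remaining genes of the step had smaller decreases, NOP16 at -0.88, FTSJ3, a methyltransferase, at -0.73 and NIP7 at -0.51 (adjusted p = 0.0322 by limma). The call of NIP7 was lost without monolayer 2, monolayer 3, spheroid 1 or spheroid 2.

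Of the nucleolar proteins of several steps, 4 of 6 were called lower, with a median of -0.68, and 2 were called without monolayer 2. Their log2 differences ranged from -1.79 to -0.067. LYAR, a nucleolar zinc finger protein linked to growth, gave 1375, 1224 and 1216 in monolayers and 388, 441 and 394 in spheroids (log2 difference -1.79, standard error 0.12, adjusted p = 0.000305 by limma), and its other probe set gave -1.83. The spheroids were far below the monolayers at both. NPM3, a relative of nucleophosmin, gave 599.6, 616 and 650.4 in monolayers and 306, 376 and 365 in spheroids (log2 difference -0.98, standard error 0.13, adjusted p = 0.00245 by limma). SURF6, a nucleolar matrix protein, gave 254, 253 and 234 in monolayers and 166, 141 and 159 in spheroids (log2 difference -0.81, standard error 0.16, adjusted p = 0.0148 by limma), a call lost without monolayer 2. DDX21, an RNA helicase that acts with polymerase I, gave 3503, 3226 and 3134 in monolayers and 2473, 2368 and 2642 in spheroids (log2 difference -0.54, standard error 0.14, adjusted p = 0.0474 by limma), and its call was lost without any 1 of the 6 arrays. Its other probe set was called lower at -0.69. NCL and NPM1, major proteins of the nucleolus, were not called. NCL, or nucleolin, gave 3411, 3171 and 3155 in monolayers and 2693, 2688 and 2824 in spheroids (log2 difference -0.39, standard error 0.13, adjusted p = 0.111 by limma), with the groups separate and a call gained by quantile normalization. NPM1, or nucleophosmin, gave 4851, 4638 and 4114 in monolayers and 4867, 4644 and 4826 in spheroids (log2 difference -0.067, standard error 0.14, adjusted p = 0.848 by limma), and its groups overlapped. The sign of NPM1 was positive without centring, at 0.079, and without spheroid 2, at 0.031, and its other probe sets stood at -0.32 and -0.51 without a call.

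The 45 genes had 88 probe sets with 1 symbol, and 24 genes had more than 1. Of the 88, 61 were called lower and 0 higher, where 6.65% of all 54613 probe sets were called lower and 2.78% higher. At an unadjusted p under 0.05 limma gave 70 lower and 1 higher, and the t-test called 0 of the 88 higher after adjustment. The 1 was a dim probe set of HEATR1, with 3.23, 0.54 and 0.55 in monolayers and 7.23, 4.32 and 2.69 in spheroids, which was called higher without monolayer 1 (log2 difference 2.86, adjusted p = 0.043 by limma). Leaving aside the probe sets that read the genes above, 21 of the other 43 were called lower. Probe sets with both group means under a signal of 30 numbered 13, of which 1 was called lower, a probe set of RCL1 (-2.60). Among brighter ones, called and not called probe sets occurred together in 7 genes. In POLR1A, POLR1E, UTP15, RRP1B and WDR12 every spheroid lay below every monolayer also at the probe set that was not called. Its log2 difference was -1.31 for POLR1E, -0.89 for UTP15, -0.82 for RRP1B and -0.65 for WDR12. In TSR1 and PNO1 the groups overlapped at the probe sets that were not called. TSR1 was called lower at -1.46 and -1.17 and not called at -0.14 and -0.27. PNO1 was called at -0.89 and not at -0.41 and -0.27. HEATR1, RRP12 and DDX10 each had a positive difference at 1 or more probe sets with both group means under 30. A further 11 probe sets are shared with other symbols, of which 6 were called lower and 5 not called. Of these, the probe set of UTP4 shared with HAS3 was dim, with 11.8, 2.15 and 4.24 in monolayers and 14.4, 13.0 and 8.99 in spheroids (log2 difference 1.18, adjusted p = 0.346 by limma), and was not called. When each gene was instead read by the mean of its probe sets, 35 of 45 were called lower, with a median of -0.93, and the decreases of HEATR1 (-0.37), RRP12 (-0.21), PNO1 (-0.53), NOP16 (-0.69), WDR12 (-0.62) and PES1 (-0.62) lost their call.

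**Figure D3:**
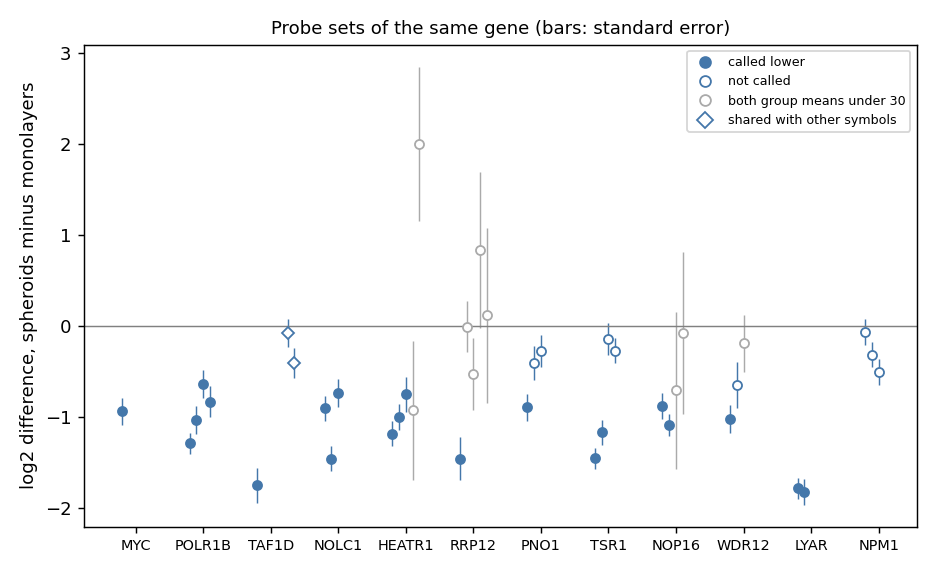
Log2 difference between spheroids and monolayers, with standard error, for every probe set of 12 genes (horizontal axis), ordered from the brightest, with open symbols for probe sets that were not called and grey for those with both group means under 30. The 4 probe sets of POLR1B lie below 0, from -1.29 to -0.64, and those of TSR1 and PNO1 divide into called and not called.

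The size of the decrease varied with the brightness of the probe set, which depends on its sequence as well as on the RNA and gives no order of abundance between genes. Over the 45 genes, which share the same 6 arrays, brightness and log2 difference had a Pearson r of 0.564 and a Spearman rho of 0.555, so that brighter probe sets had smaller decreases. Over all 19775 genes the values were -0.128 and -0.146. NPM1, NCL, DDX21 and NHP2 were the brightest of the 45, with differences between -0.65 and -0.067. The part of brightness in the smaller decreases was not tested.

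Further factors of ribosome biogenesis were also called lower. Of 117 measured outside the 52, 73 were called lower and 0 higher, with a median of -0.68. None of them was higher at an unadjusted p under 0.05 or by the t-test, which called 25 lower. Of all 19775 genes, limma called 9.22% lower, and the t-test called 525 lower. The count of 73 became 41 without monolayer 2 and 45 without monolayer 3. By step, 8 of 16 further RNA polymerase I factors, 6 of 12 snoRNP factors, 28 of 36 small subunit factors, 25 of 40 large subunit factors and 7 of 14 proteins of the RNA exosome and of RNA trimming were called lower. Without monolayer 2 these became 4 for polymerase I, 16 for the small and 12 for the large subunit. Without monolayer 3 they became 4, 16 and 16, and polymerase I had 5 without spheroid 1. The polymerase I list includes subunits shared with polymerases II and III, of which POLR2E, POLR2F and POLR2H were called lower and POLR2K and POLR2L were not. TCOF1 is counted in both the polymerase I and the snoRNP list. TCOF1, or treacle, which couples ribosomal DNA transcription to RNA modification, fell from 299.7 ± 21.4 to 125 ± 26.4 (SD over 3 arrays; log2 difference -1.43, standard error 0.15, adjusted p = 0.000994 by limma). The polymerase I subunits POLR1G and POLR1H stood at -1.15 and -0.94, and the helicases RUVBL1 and RUVBL2, which help to assemble box C/D particles, at -1.17 and -0.94. In the small subunit list NOL11, PWP2 and PDCD11 stood at -1.09, -1.47 and -1.08. In the large subunit list RRP15, NLE1 and WDR74 stood at -1.41, -1.38 and -1.04. EXOSC2, a cap subunit of the exosome, gave 377, 379 and 397 in monolayers and 134, 116 and 91.3 in spheroids (log2 difference -1.92, standard error 0.16, adjusted p = 0.000616 by limma), the largest decrease among these further factors, and EXOSC8 and EXOSC5 stood at -1.02 and -1.31. RNA polymerase III makes the remaining ribosomal RNA and transfer RNA, and 7 of 18 of its genes were called lower, with a median of -0.45, or 3 to 6 without 1 array. POLR3K, POLR3G and POLR3E stood at -1.44, -1.90 and -0.78.

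**Figure D4:**
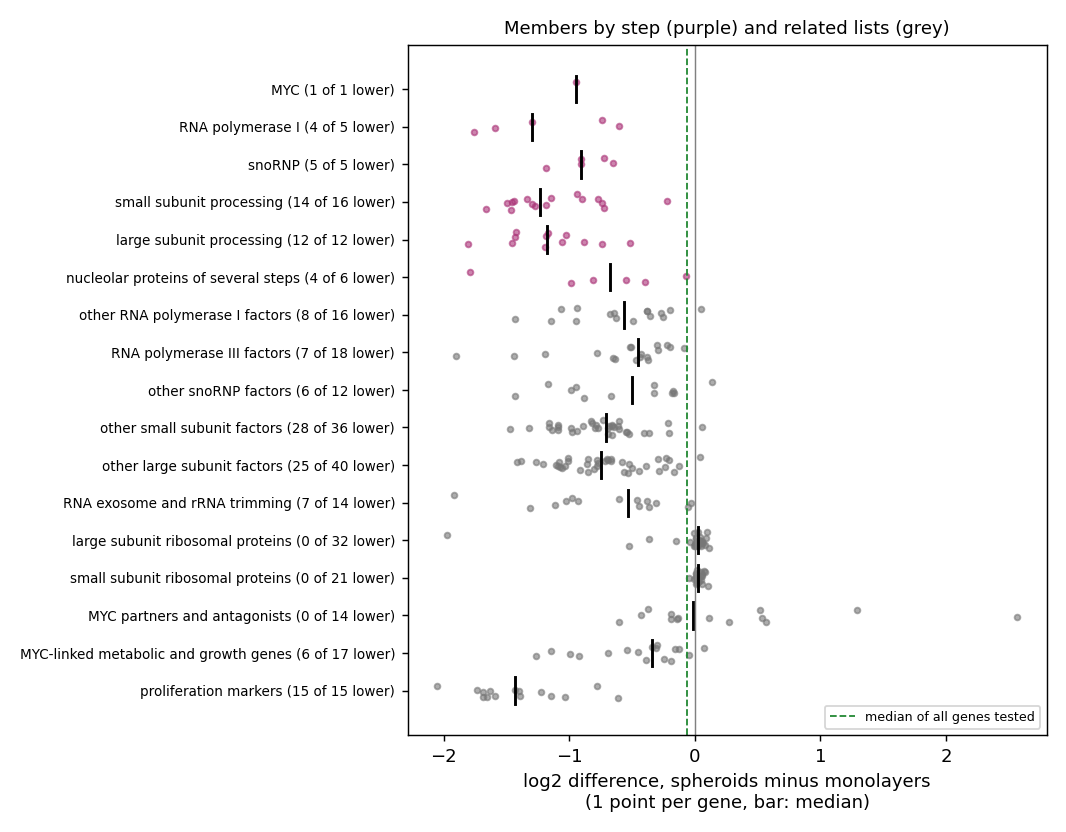
Log2 difference between spheroids and monolayers of each gene (1 point) by step for the 45 genes (purple) and in related lists (grey), with the median of each list as a bar and the median of all genes as a dashed line at -0.062. Medians of the biogenesis lists lie between -1.29 and -0.45, and both lists of ribosomal proteins lie near 0.

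Ribosomal proteins, the parts that these factors assemble, were not called in either direction at the probe sets of highest level. Of 78 listed, 53 had a probe set with 1 symbol, and limma called 0 lower and 0 higher, with a median log2 difference of 0.028. By an unadjusted p under 0.05, 1 was lower (RPL36A, at a dim probe set with 18.5, 14.1 and 15.2 in monolayers and 11.3, 1.22 and 6.44 in spheroids) and 0 higher, and the t-test called 0 in either direction. For 50 of the 53 the probe set was more than 8 log2 units brighter than the array median, with log2 differences from -0.15 to 0.11 and standard errors from 0.12 to 0.16. None of the 168 genes on the array with probe sets that bright was called in either direction, at a median of 0.022, and at an unadjusted p under 0.05 limma gave 4 lower and 1 higher. Without centring, the median of the ribosomal proteins was 0.17, beside 0.083 for all genes, again with 0 calls. With the mean of a gene's probe sets, RPS24 was called lower (log2 difference -0.79, adjusted p = 0.00456 by limma) and RPS29 higher (0.52, adjusted p = 0.0229 by limma). Signals of ribosomal protein probe sets can include RNA of processed pseudogenes with nearly the same sequence. How far probe sets of this brightness can register a change was not tested.

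**Figure D5:**
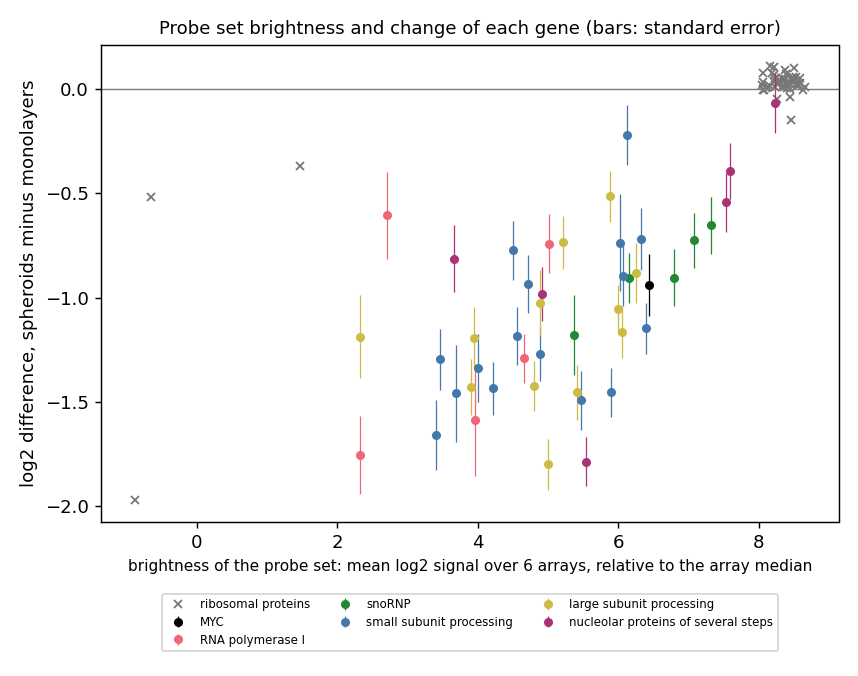
Log2 difference between spheroids and monolayers (vertical axis, with standard error for the 45 genes) against the brightness of the probe set, as mean centred log2 signal over 6 arrays (horizontal axis), with ribosomal proteins as crosses. The crosses lie near 0 at a brightness above 8, and NPM1 is the only 1 of the 45 genes in that range.

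Among 14 measured partners, relatives and antagonists of MYC, 2 were called higher and 0 lower. Of all genes, 3.88% were called higher and 9.22% lower. MXI1, which competes with MYC for MAX, gave 204, 291 and 296 in monolayers and 715, 781 and 622 in spheroids (log2 difference 1.29, standard error 0.17, adjusted p = 0.0023 by limma). MYCN, a relative of MYC, was dim in monolayers and gave 7.60, 15.7 and 21.97 in monolayers and 113, 71.0 and 92.4 in spheroids (log2 difference 2.57, standard error 0.41, adjusted p = 0.0056 by limma). In both, every spheroid lay above every monolayer. Both calls were lost by the t-test and by limma without the trend, and MYCN also when its probe sets were averaged. MAX, the partner of both, had a log2 difference of -0.14, and FBXW7, which marks MYC protein for degradation, of -0.60 (adjusted p = 0.076 by limma), without a call. FBXW7 was called lower without spheroid 1 and with the replicate block. PIM1, a kinase, stood at 0.57 and was called higher with quantile normalization, with the replicate block and without centring. MLXIP, a relative of the MYC partners, stood at 0.52 and was called higher without monolayer 1. Of 17 metabolic and growth genes often linked to MYC, 6 were called lower, with a median of -0.34, beside 9.22% of all genes. Without 1 array 4 to 6 were called lower, and the t-test called 4. SRM, spermidine synthase, gave 1440.5, 1649.8 and 1669.8 in monolayers and 794, 833 and 752 in spheroids (log2 difference -1.14, standard error 0.12, adjusted p = 0.00115 by limma). PPAT, of purine synthesis, stood at -1.26, PHB1, a mitochondrial chaperone, at -0.99 and CAD, of pyrimidine synthesis, at -0.92. NME1 stood at -0.69 and IARS1, a transfer RNA synthetase, at -0.54. IARS1 lost its call without monolayer 1, monolayer 2, monolayer 3 or spheroid 1, and NME1 without monolayer 2 or monolayer 3.

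Proliferation markers were also lower. All 15 measured were called lower in spheroids, where 9.22% of all genes were called lower. Their median was -1.43, and AURKA (-1.74), BUB1 (-1.59) and CDK1 (-2.05) had the smallest adjusted p. Without 1 array 13 to 15 were called lower, and the t-test called 5 lower. CDK1, the kinase of mitotic entry, gave 2688, 1968 and 2406 in monolayers and 810.3, 646 and 461 in spheroids. Their summed signal was 21893 to 25732 per monolayer array and 9377 to 12730 per spheroid array, and that of the 45 genes was 49864 to 51171 and 31703 to 32557. The part of proliferation in the decrease of the ribosome biogenesis genes was not tested.

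The call was kept for 33 of the 40 genes whichever array was left out, and no decrease among the 45 moved by more than 1.5-fold when 1 array was left out. POLR1B, TAF1D, RRP9, IMP4, BYSL, TSR1, NOP2, RRS1, MRTO4, NOC2L and LYAR, 11 genes in all, kept it in all 14 alternative settings. No setting read a gene by probe sets shared with other symbols, and those of TAF1D were brighter and not called. TSR1 also had probe sets without a call, at -0.14 and -0.27.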

How the data were processed

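RNA of NCI-H226 monolayers and spheroids, 3 biological replicates each, was measured on Affymetrix U133 Plus 2.0 arrays. The deposited signal intensities were made by the authors with MAS5, per the labels (version not given in the sources used here), and scaled to an equal trimmed mean (2% at each end). The median normalization of the study's methods does not show in them. Detection calls were not used here. Precision is limited by the number of arrays.

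After removal of 62 controls, 54613 of 54675 probe sets were tested as log2 signals, centred on the median of each array, with limma 3.58.1 (empirical Bayes with a mean-variance trend, two-sided) under R 4.3.3. No floor or pseudocount was used. Benjamini-Hochberg adjustment ran over all probe sets, with a threshold of 0.05. The annotation gives 1 symbol to 41097 probe sets, several to 1801 and none to 11777. A gene was read by its single-symbol probe set of highest mean level, over 19775 genes. Brightness is that mean level. Over all probe sets tested, arrays with the same replicate number did not deviate together (correlations 0.091, -0.013 and 0.022), so no block was used in the main fit. Correlations over all probe sets cannot show whether single genes deviate together.

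The genes and lists were chosen with earlier results of these data known. Values per array were given for MYC, for up to 6 genes per step with the smallest adjusted p and for every gene with a difference over 2-fold, and up to 3 genes per related list with the smallest adjusted p were named. Other genes were named after their values were seen. The fit was tested on simulated data. Alternatives were the methods' t-test, limma without the trend, no centring, quantile normalization, a replicate block, raising signals to the 20th percentile, testing only the probe sets brighter than the median, the mean of a gene's probe sets and leaving out each array. Tables and figures were made with Python 3.11.15, pandas 2.3.3 and matplotlib 3.10.9.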

Additional observations from a re-analysis of the deposited data

How the results depend on the processing

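All 40 decreases kept their direction in every setting, and the 45 genes were never called higher. The count of genes called lower was 35 to 41 in most settings, 34 to 40 without 1 array, 20 with the methods' t-test and 11 with limma without the trend, which called 142 lower and 86 higher among all genes. For their probe sets the counts were 47 to 62 without 1 array, 32 with the t-test and 15 without the trend, and the number called higher was 0 to 1 without 1 array (1 without monolayer 1). The median log2 difference was -1.09 to -1.02 without 1 array, -0.93 with the mean of a gene's probe sets, -0.89 with quantile normalization and -0.91 without centring. Further biogenesis factors and ribosomal proteins gave 41 to 77 calls without 1 array (41 without monolayer 2, 45 without monolayer 3), 25 with the t-test and 4 without the trend. The log2 change of NPM1 turned from -0.067 to 0.079 without centring, and without 1 array it ranged from -0.14 to 0.031 (0.031 without spheroid 2). With the replicate block, 40 of the 45 genes, 61 probe sets and 76 further genes were called. The block gained DDX10 and lost DDX21. The causes were not tested. Leaving out 1 array both lowers the number of arrays and removes a particular array, and these cannot be told apart here. Without detection calls, signal over background is unknown, which limits the dim probe sets most.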

Other observations

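Control probe sets of the array read ribosomal RNA that the labelling carried along, and they were left out of the tests. For 18S RNA the probe set at the 5' end gave 1585, 409 and 534 in monolayers and 1537, 378 and 2136 in spheroids, the middle one 888, 281 and 313 against 804, 355 and 1374, and the one at the 3' end 1320.0, 943 and 941 against 1115, 469 and 1078. The groups overlapped at all of these. For 28S RNA the probe set at the 5' end gave 2118, 868 and 676 in monolayers and 2394, 1578 and 2414 in spheroids, and the middle one 1426, 924 and 834 against 1609, 1285 and 1107, also with overlap. Monolayer 1 was above the other monolayers at each of these 5 probe sets. The 28S probe set at the 3' end was dim, with 4.33, 12.8 and 9.76 in monolayers and 12.5, 15.3 and 6.21 in spheroids, and monolayer 1 was the lowest there.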
